A study of Homo sapiens with 8 samples.

Results

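The gene set described here held MYC and 43 genes of nucleolar ribosome biogenesis, 44 of the 60612 genes in the deposited expression table. Its members were listed by name: MYC, 6 genes of RNA polymerase I transcription, 6 multifunctional nucleolar proteins, 4 box C/D and 3 box H/ACA ribonucleoprotein genes, 9 genes of small subunit maturation and 15 of large subunit maturation. All 44 passed the low-value filter (mean FPKM of at least 1) and were among the 12649 genes tested. RNA was sequenced from UM-UC3 and 5637 cells, both established human bladder cancer lines labelled wild type, after 24 h with 1, 2 or 4 mM melatonin or with the DMSO vehicle. UM-UC3 cells were grown in MEM and 5637 cells in RPMI-1640, each with 10% fetal bovine serum, so that line and medium cannot be told apart. Each line and dose had 1 library, 8 in all. No dose was replicated, and the p-values below measure how the libraries scattered around a dose trend.

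Ribosomes are assembled in the nucleolus, where RNA polymerase I transcribes the long precursor of the ribosomal RNAs. Small nucleolar ribonucleoproteins modify this precursor, box C/D particles by methylating riboses and box H/ACA particles by converting uridine to pseudouridine, while assembly factors cut, fold and pack it into the small and large subunits. The transcription factor MYC binds E-box sites together with MAX and is known for raising the expression of many of these genes in proliferating cells.

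Expression was given as FPKM, fragments scaled to transcript length and to the mapped total, with no read counts, so the depth of each library is unknown. FPKM is relative to the whole library, and a loss of RNA shared by all genes would not appear in it. Sums of FPKM per library ranged between 332961 and 395621, and mitochondrial genes took 13.4, 11.9, 19.4 and 17.3% of them in UM-UC3 cells at 0, 1, 2 and 4 mM, and 13.9, 16.2, 16.8 and 18.2% in 5637 cells. Within 5637 cells this share was higher at each higher dose, and within UM-UC3 cells it was lowest at 1 mM and highest at 2 mM. The part of this share in the results was not tested. Of 15 urothelial and epithelial marker genes, 2 to 4 reached 1 FPKM in UM-UC3 libraries and 9 or 10 in 5637 libraries. Their summed level lay between 98.8 and 206 FPKM in UM-UC3 cells and between 976 and 3626 FPKM in 5637 cells, in both lines highest in DMSO and lower at each higher dose. A few keratins carried this sum, KRT5, KRT7, KRT8, KRT18 and KRT19 in 5637 and KRT18 and KRT8 in UM-UC3. Not all markers went with it. KRT8 had 48.0, 55.5, 52.8 and 54.0 FPKM in UM-UC3 cells and 498, 562, 606 and 278 FPKM in 5637 cells. In 5637 cells CDH1 had 36.3, 46.8, 59.9 and 76.4 FPKM and EPCAM 79.1, 93.5, 119 and 113.8 FPKM. The part of these changes in the results below was not tested. Summed markers of leukocytes stayed at or under 0.272 FPKM and those of endothelial cells at or under 0.212 FPKM, and those of erythroid cells were listed at 0. Summed fibroblast markers had 8.34, 8.14, 1.79 and 0.295 FPKM in UM-UC3 cells, mostly COL3A1, and 6.41, 6.96, 7.96 and 10.0 FPKM in 5637 cells, mostly COL1A1, and their part was not tested.

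In 5637 cells the set fell nearly as a whole as melatonin rose, while in UM-UC3 cells its members went in different directions. The dose trend of a gene is the change fitted over 0 to 4 mM on the log2(FPKM + 1) scale, which understates changes of low genes, and ± gives its 95% margin. It was tested with limma, with p-values adjusted over all 12649 genes. In UM-UC3 cells, 1 of 44 members fell and 6 rose at an adjusted p under 0.05, against 16.7% and 12.5% of all genes tested. In 5637 cells, 38 of 44 fell and none rose, against 20.4% and 23.0% of all genes. The median trend of the members was 0.02 in UM-UC3 cells and -1.07 in 5637 cells, beside -0.04 and 0.05 over all tested genes. In bulk RNA, fewer cells of a kind and less RNA per cell cannot be told apart.

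The summed level of the 44 genes made the same contrast. It was 1.04, 0.978, 0.909 and 0.963% of all FPKM in UM-UC3 cells at 0, 1, 2 and 4 mM, against 0.959, 0.781, 0.590 and 0.492% in 5637 cells. The 4 shares of UM-UC3 stayed within a narrow band with the lowest at 2 mM, whereas those of 5637 declined at each step and only its DMSO library overlapped the UM-UC3 range. These sums lean on NPM1, which held 1593 of 3618 FPKM in UM-UC3 DMSO and 1696 of 3809 FPKM at 4 mM. In 5637 cells NPM1 held 1039 of 3284 FPKM in DMSO and 550.1 of 1639.6 FPKM at 4 mM. Relative to DMSO, the median member stood at -0.13, -0.07 and -0.02 (log2) at 1, 2 and 4 mM in UM-UC3 cells and at -0.39, -0.75 and -1.08 in 5637 cells.

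**Figure D1:**
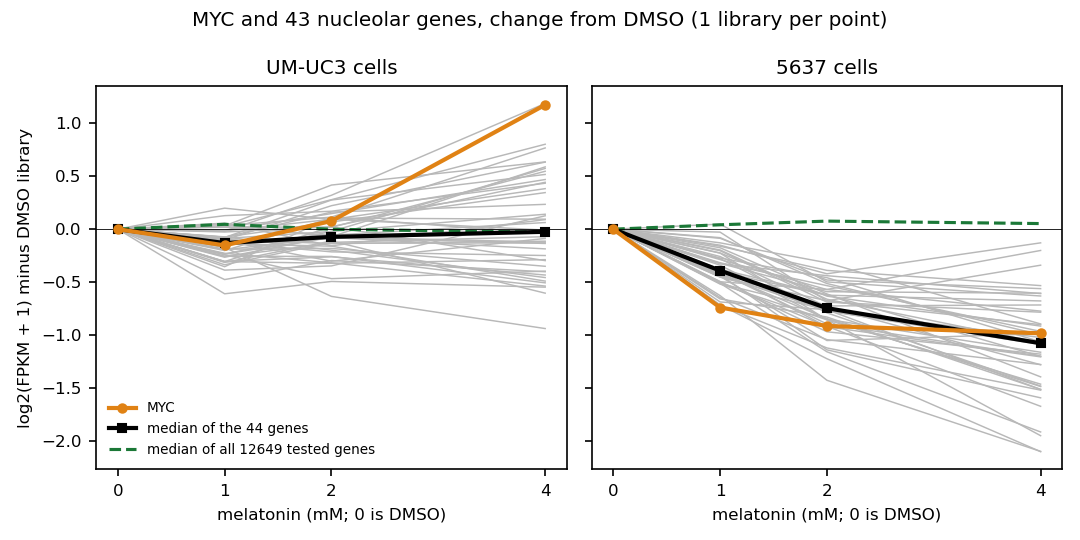
Change of each of the 44 genes from the DMSO library of its line, in log2(FPKM + 1), against melatonin dose in mM, with UM-UC3 left and 5637 right. Grey lines are single genes, orange is MYC, black the median of the 44 genes and dashed green that of all 12649 tested genes; the black line reaches -0.02 at 4 mM in UM-UC3 cells and -1.08 in 5637 cells.

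The shape of the response differed as well. In UM-UC3 cells, 6 members were lower at each higher dose (16.7% of all tested genes did so) and 3 were higher at each, namely BYSL, GNL3 and RRP12 (14.3%). In this line 35 members lay below DMSO at 1 mM (40.1%), 21 had their lowest level at 1 mM (11.8%), and 20 had their highest at 4 mM (32.8%). In 5637 cells, 38 members were lower at each higher dose (15.6% of all tested genes) and 43 were highest in DMSO (27.3%), the exception being NOC3L. All 44 lay below DMSO at 4 mM in 5637 cells (47.1%), and 30 had lost 50% or more of their FPKM there (15.4%). The 5 genes LYAR, NOLC1, NOP56, RRP9 and UTP14A were lowest at 2 mM in 5637 cells (9.19%) and higher again at 4 mM.

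MYC itself moved apart in the lines, up in UM-UC3 cells and with a fall in 5637 cells that missed the threshold. Its level was 101, 91.0, 107 and 230.2 FPKM in UM-UC3 cells at 0, 1, 2 and 4 mM, and 69.0, 40.9, 36.1 and 34.4 FPKM in 5637 cells. The 4 mM library of UM-UC3 stood far above the other 3 of that line, while in 5637 the main step lay between DMSO and 1 mM, and the lines did not overlap. The trend was 1.27 ± 0.72 in UM-UC3 cells (limma adjusted p = 0.0169) and -0.86 ± 0.72 in 5637 cells (limma adjusted p = 0.0543). The trends differed by 2.13 ± 1.02, UM-UC3 minus 5637 (limma adjusted p = 0.0100). Without the UM-UC3 4 mM library the UM-UC3 trend was 0.16 (limma adjusted p = 0.959) and the difference 1.02 (limma adjusted p = 0.431). The fall in 5637 cells passed the threshold when the UM-UC3 4 mM, the UM-UC3 DMSO or the 5637 1 mM library was left out (limma adjusted p = 0.0338, 0.0391 and 0.0498). Across all such omissions its trend lay between -1.83 and -0.30, and the limma adjusted p reached 0.570.

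**Figure D2:**
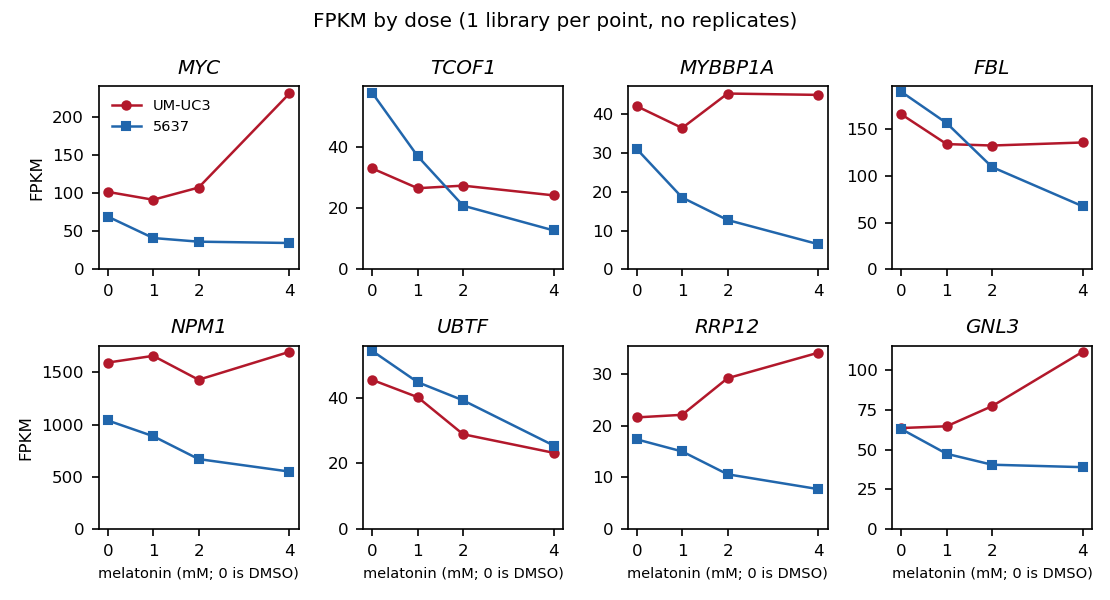
FPKM of 8 members (vertical axes, each from 0) against melatonin dose in mM, with UM-UC3 as red circles and 5637 as blue squares, 1 library per point. MYC climbs to 230.2 FPKM at 4 mM in UM-UC3 cells and lies at 34.4 FPKM in 5637 cells, UBTF falls in both lines, and RRP12 and GNL3 run in opposite directions.

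Promoter sequences were searched for the E-box, the site that MYC and MAX are known to bind. RefSeq promoters on GRCh38.p14, 250 bases before and 50 after the start, were matched for 36 of 44 members; MYC, POLR1E, TCOF1, NOLC1, NOP58, RRP12, BOP1 and RRS1 were not matched. The E-box CACGTG, which reads the same on both strands, counted for a gene where any of its listed promoters held it. It occurred in 18 of 36 members (50%), in 12.7% of the 9547 tested genes with a promoter and in 8.77% of all 27305 genes. Within the 50 bases after the start, a window chosen after positions were seen, 12 of 36 members held it (33.3%), against 1.54% of the tested genes. Below is, for each class with a match, the E-box-holding member with the largest difference of trends, 5′ to 3′ on the gene's strand with the E-box in capitals.
MYBBP1A: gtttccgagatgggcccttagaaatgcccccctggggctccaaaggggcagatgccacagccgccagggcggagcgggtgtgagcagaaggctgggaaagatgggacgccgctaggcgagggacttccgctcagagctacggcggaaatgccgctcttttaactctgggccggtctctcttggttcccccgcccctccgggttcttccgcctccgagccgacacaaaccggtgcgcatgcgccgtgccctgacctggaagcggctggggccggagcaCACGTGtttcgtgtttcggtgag
FBL: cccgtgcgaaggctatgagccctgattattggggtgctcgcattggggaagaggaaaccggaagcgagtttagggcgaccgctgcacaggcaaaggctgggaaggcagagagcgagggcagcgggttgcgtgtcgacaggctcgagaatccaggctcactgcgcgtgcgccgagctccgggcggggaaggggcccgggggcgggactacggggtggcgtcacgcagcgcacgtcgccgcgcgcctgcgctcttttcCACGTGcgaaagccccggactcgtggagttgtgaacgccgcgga
GAR1: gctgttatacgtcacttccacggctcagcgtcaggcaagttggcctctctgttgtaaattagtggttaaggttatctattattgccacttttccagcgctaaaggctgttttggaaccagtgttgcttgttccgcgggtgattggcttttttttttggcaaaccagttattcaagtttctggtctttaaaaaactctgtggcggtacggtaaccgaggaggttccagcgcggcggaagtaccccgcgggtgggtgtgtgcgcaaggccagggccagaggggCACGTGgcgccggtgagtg
WDR43: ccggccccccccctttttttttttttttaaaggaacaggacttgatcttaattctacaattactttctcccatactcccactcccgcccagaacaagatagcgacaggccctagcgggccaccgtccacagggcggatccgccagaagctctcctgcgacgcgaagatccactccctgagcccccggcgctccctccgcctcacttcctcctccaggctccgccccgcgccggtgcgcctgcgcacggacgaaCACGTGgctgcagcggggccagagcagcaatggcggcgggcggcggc
NOP2: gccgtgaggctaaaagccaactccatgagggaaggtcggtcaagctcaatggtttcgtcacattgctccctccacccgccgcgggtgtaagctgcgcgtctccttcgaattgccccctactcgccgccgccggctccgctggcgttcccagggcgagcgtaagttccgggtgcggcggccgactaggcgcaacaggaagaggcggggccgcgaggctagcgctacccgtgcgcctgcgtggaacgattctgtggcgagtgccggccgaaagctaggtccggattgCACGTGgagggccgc

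These promoters lie at chr17:4555335-4555634 on the minus strand (MYBBP1A), chr19:39846330-39846629 on the minus strand (FBL), chr4:109815512-109815811 on the plus strand (GAR1), chr2:28894417-28894716 on the plus strand (WDR43) and chr12:6568242-6568541 on the minus strand (NOP2). The E-box begins 28, 7, 32, 4 and 36 bases after the start in that order of genes, so that all 5 copies lie downstream of it. By class, the E-box was found in 3 of 5 multifunctional proteins, 2 of 3 box C/D genes, 1 of 3 box H/ACA genes, 6 of 8 small subunit genes, 6 of 13 large subunit genes and 0 of 4 polymerase I genes. A match describes the letters of the window and shows no binding. Members with the E-box had median trends of 0.10 in UM-UC3 cells and -1.26 in 5637 cells, those without it 0.03 and -1.03. The trends of the lines differed for 14 of 18 and 12 of 18 genes, all higher in UM-UC3 (10.4% of all tested genes). All of these difference calls were lost without the UM-UC3 4 mM library.

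The trends of the lines differed, at an adjusted p under 0.05, for 30 of the 44 members, all with the higher value in UM-UC3 cells, where 10.4% of tested genes differed in that direction and 15.3% in the other. The difference was above 0 for all 44, with a median of 1.12 beside -0.11 over all tested genes. The largest were those of MYBBP1A, NOP16, MYC and UTP15, between 2.08 and 2.24. GNL3, NOP2, RRP12 and UTP15 fell in 5637 cells and rose in UM-UC3 cells, which 0.901% of tested genes did, and UBTF alone fell in both lines (6.32%). This count rested on the top dose: 15 members differed without the 5637 4 mM library, 13 of them among the 30, and 0 without the UM-UC3 4 mM library, where 20 had an unadjusted limma p under 0.05 and 43 of 44 differences were above 0. The 38 falls in 5637 cells became 15 without the 5637 4 mM library, all among the 38, and 13 were kept whichever library was left out: POLR1B, TCOF1, MYBBP1A, DDX21, GAR1, UTP20, WDR43, BYSL, NOP2, NOP16, BOP1, NLE1 and RRS1. The 7 calls in UM-UC3 cells became 0 without the UM-UC3 4 mM library (2 at an unadjusted limma p under 0.05), 4 without its 1 mM library, and 12 without the 5637 4 mM library.

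**Figure D3:**
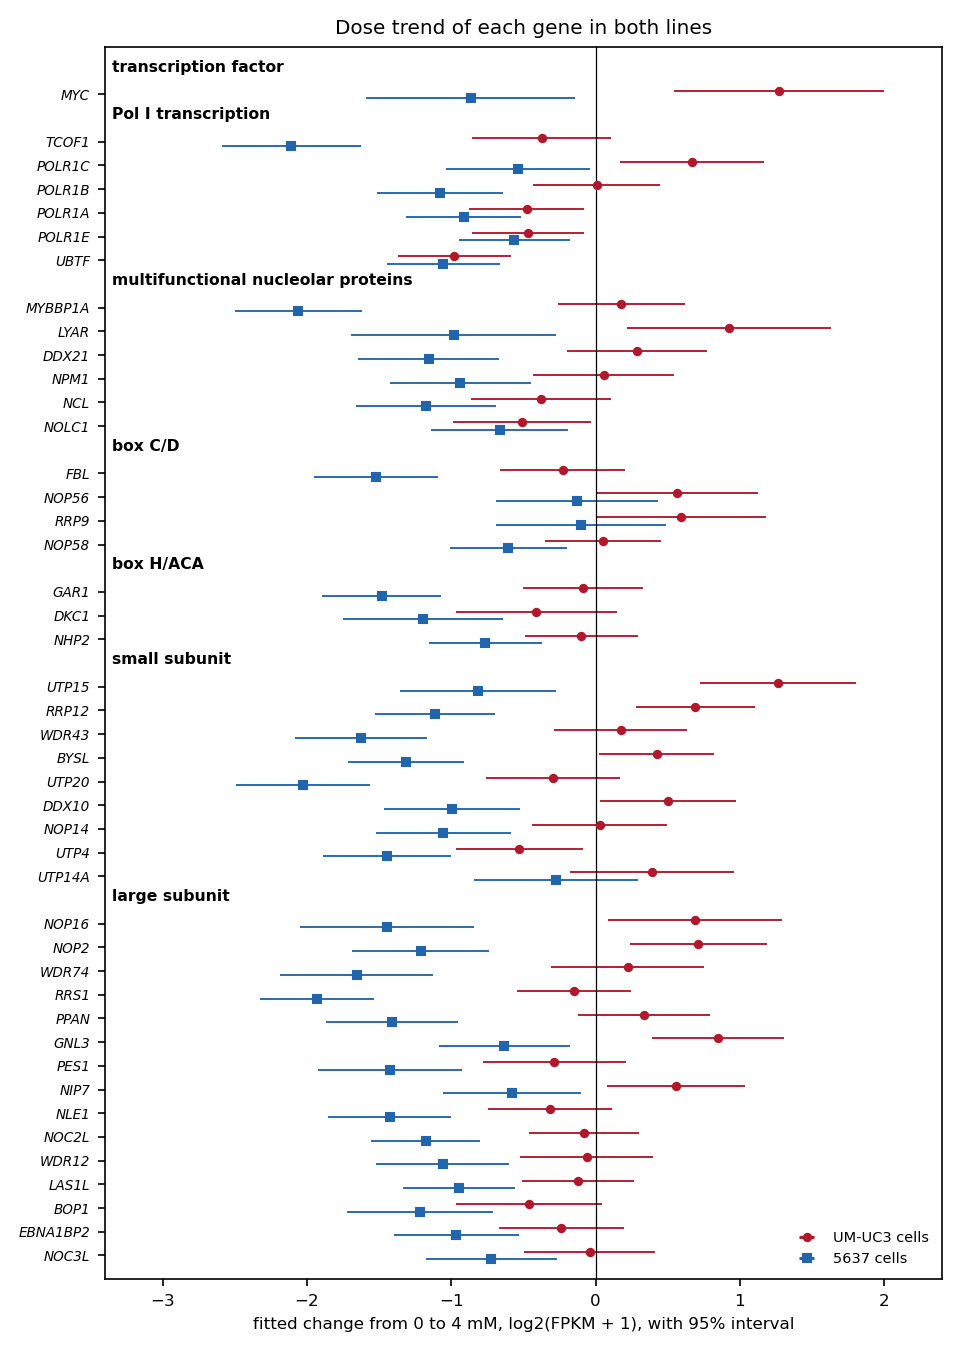
Dose trend of each of the 44 genes (change fitted over 0 to 4 mM in log2(FPKM + 1)) with its 95% interval, UM-UC3 as red circles above 5637 as blue squares, grouped by role. Every red point lies right of the blue point of its gene, by 0.07 for UBTF up to 2.24 for MYBBP1A.

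Over both lines together, with a term for the line, 14 of 44 members fell and none rose, against 12.8% and 12.1% of tested genes, and the median trend was -0.53 beside -0.01. The 14 were POLR1A, POLR1E, UBTF, TCOF1, NCL, NOLC1, FBL, DKC1, UTP4, UTP20, BOP1, PES1, NLE1 and RRS1. UBTF alone kept its call whichever library was left out. The count was 3 without 5637 DMSO or 5637 4 mM, 5 without 5637 1 mM, 9 without 5637 2 mM, 8 without UM-UC3 DMSO or UM-UC3 2 mM, and 31 without UM-UC3 4 mM.

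Among the 6 genes of polymerase I transcription, 5 fell in 5637 cells (20.4% of all tested genes). In UM-UC3 cells 1 fell and 1 rose (16.7% and 12.5%), and 3 differed between lines, with the trend higher in UM-UC3 (10.4%). UBTF, which binds the ribosomal DNA and recruits the polymerase, had 45.4, 40.1, 28.8 and 23.2 FPKM in UM-UC3 cells at 0, 1, 2 and 4 mM, and 54.2, 44.7, 39.1 and 25.4 FPKM in 5637 cells. Its level stepped down with every increase of dose in each line, with trends of -0.98 ± 0.39 in UM-UC3 (limma adjusted p = 0.00356) and -1.05 ± 0.39 in 5637 (limma adjusted p = 0.00122). Each of these calls needed the 4 mM library of its line. TCOF1, the treacle scaffold protein of the nucleolus, had 32.9, 26.4, 27.3 and 24.1 FPKM in UM-UC3 cells and 57.5, 36.9, 20.7 and 12.6 FPKM in 5637 cells. Its fall in 5637 cells, -2.11 ± 0.48 (limma adjusted p = 0.000116), was the steepest of the set and kept its call without any one library, while its trend in UM-UC3 was -0.37 ± 0.48.

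POLR1A, the largest polymerase I subunit, had 20.8, 18.9, 18.5 and 14.5 FPKM in UM-UC3 cells and 10.0, 9.10, 7.86 and 4.94 FPKM in 5637 cells. POLR1E, another subunit, had 70.0, 66.5, 60.9 and 50.7 FPKM in UM-UC3 cells and 39.9, 31.6, 29.1 and 25.8 FPKM in 5637 cells. Both stepped down with every dose in each line; the trends in UM-UC3 cells, -0.48 ± 0.40 and -0.47 ± 0.38, missed the threshold (limma adjusted p = 0.0708 and 0.0664), and those in 5637 cells, -0.91 ± 0.40 and -0.56 ± 0.38, passed it (limma adjusted p = 0.00280 and 0.0240). POLR1B, the other large catalytic subunit, had 10.7, 10.6, 11.5 and 10.7 FPKM in UM-UC3 cells and 11.6, 8.61, 6.37 and 4.92 FPKM in 5637 cells. It was level in UM-UC3, with a difference of trends of 1.08 ± 0.62 (limma adjusted p = 0.0191). POLR1C, shared with polymerase III, rose in UM-UC3 cells by 0.67 ± 0.50 (limma adjusted p = 0.0477), a call lost when any 1 of 5 libraries was left out. The 5637 falls of POLR1A and POLR1E were lost without 5637 4 mM, that of POLR1E also without 5637 DMSO.

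All 6 multifunctional nucleolar proteins fell in 5637 cells (20.4% of all tested genes). None was called in UM-UC3 cells, where 16.7% of tested genes fell and 12.5% rose. The lines differed for 4, with the trend higher in UM-UC3 (10.4%). MYBBP1A, a nucleolar protein that binds MYB and represses transcription, had 42.1, 36.5, 45.4 and 45.0 FPKM in UM-UC3 cells and 31.1, 18.5, 12.7 and 6.46 FPKM in 5637 cells. Its difference of trends was 2.24 ± 0.62 (limma adjusted p = 0.00138). DDX21, an RNA helicase of polymerase I transcription and rRNA processing, had 131, 124, 146 and 154 FPKM in UM-UC3 cells and 79.2, 55.9, 39.9 and 34.3 FPKM in 5637 cells. Its difference was 1.44 ± 0.69 (limma adjusted p = 0.00969), and for both genes the lines did not overlap.

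Nucleophosmin, NPM1, a histone and ribosome chaperone, was the most abundant member, with 1593, 1657, 1429 and 1696 FPKM in UM-UC3 cells and 1039, 889, 669.7 and 550.1 FPKM in 5637 cells. It stayed level in UM-UC3 and stepped down in 5637, but its difference, 0.99 ± 0.69 (limma adjusted p = 0.0407), was lost when any 1 of 7 libraries was left out. NPM1 has 46 annotated pseudogenes, of which the highest reached 8.61 FPKM. Nucleolin, NCL, an RNA-binding protein of the pre-rRNA, had 176, 148, 127 and 133 FPKM in UM-UC3 cells and 332, 262, 184 and 148 FPKM in 5637 cells. NOLC1, a chaperone of small nucleolar ribonucleoproteins, had 75.5, 64.4, 60.4 and 51.7 FPKM in UM-UC3 cells and 67.6, 49.2, 40.5 and 40.8 FPKM in 5637 cells. Both were highest in DMSO in each line; their falls over both lines were -0.78 ± 0.49 and -0.59 ± 0.38 (limma adjusted p = 0.0295 and 0.0335), lost when any 1 of 4 (NCL) or 5 (NOLC1) libraries was left out, and the difference of trends missed the threshold (0.80 ± 0.69 and 0.15 ± 0.67). The 5637 trend of NOLC1 was -0.67 with all libraries and -0.30 without 5637 DMSO (limma adjusted p = 0.384).

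Of the 4 box C/D genes, 2 fell in 5637 cells (20.4% of all tested genes). The lines differed for 1, with the trend higher in UM-UC3 (10.4%). FBL, fibrillarin, the ribose methyltransferase of the particle, had 166, 134, 133 and 136 FPKM in UM-UC3 cells and 190.2, 157, 109.5 and 67.4 FPKM in 5637 cells. After 1 step down in UM-UC3 it held, whereas 5637 declined to the last dose, and the trends differed by 1.29 ± 0.61 (limma adjusted p = 0.00942). NOP56, a core protein of the particle, had 98.2, 79.2, 99.9 and 134 FPKM in UM-UC3 cells and 217, 195, 162 and 198 FPKM in 5637 cells. NOP58, its partner in the core, had 35.5, 36.0, 34.1 and 37.1 FPKM in UM-UC3 cells and 49.9, 47.0, 35.5 and 33.5 FPKM in 5637 cells. Their differences of trends, 0.69 ± 0.80 and 0.66 ± 0.57, missed the threshold (limma adjusted p = 0.174 and 0.0851), and NOP56 did not fall in 5637 cells at it (-0.13 ± 0.56). The difference of FBL was lost without the 4 mM library of either line.

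The 3 box H/ACA genes all fell in 5637 cells (20.4% of all tested genes). GAR1 alone differed between lines at the threshold, with the trend higher in UM-UC3 (10.4%). DKC1, dyskerin, the pseudouridine synthase, had 103, 66.8, 72.5 and 69.8 FPKM in UM-UC3 cells and 94.0, 70.4, 50.1 and 40.3 FPKM in 5637 cells. GAR1, a core protein, had 32.7, 30.3, 26.4 and 30.7 FPKM in UM-UC3 cells and 33.8, 25, 18.4 and 11.4 FPKM in 5637 cells. NHP2, another core protein, had 55.3, 51.6, 50.2 and 51.0 FPKM in UM-UC3 cells and 56.5, 46.1, 37.7 and 32.6 FPKM in 5637 cells. In DMSO each gene was at much the same level in both lines, and from 2 mM on the 5637 libraries were the lower ones. The difference of trends was 0.79 ± 0.79 for DKC1, 1.40 ± 0.59 for GAR1 (limma adjusted p = 0.00588) and 0.66 ± 0.55 for NHP2, that of GAR1 being lost without the 4 mM library of either line.

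Among 9 small subunit factors, 8 fell in 5637 cells (20.4% of all tested genes) and 2 rose in UM-UC3 cells (12.5%). The lines differed for 8, with the trend higher in UM-UC3 (10.4%). RRP12, needed for nuclear export and maturation of the small subunit, had 21.6, 22.1, 29.2 and 34.2 FPKM in UM-UC3 cells and 17.4, 15, 10.6 and 7.74 FPKM in 5637 cells. It rose by 0.69 ± 0.41 in UM-UC3 (limma adjusted p = 0.0203) and fell by 1.11 ± 0.41 in 5637 (limma adjusted p = 0.00122), with no overlap of the lines. BYSL, bystin, an assembly factor, had 7.80, 8.62, 8.90 and 10.9 FPKM in UM-UC3 cells and 18.4, 15.2, 10.7 and 6.99 FPKM in 5637 cells. The lines crossed between 2 and 4 mM, and the difference of trends was 1.74 ± 0.56 (limma adjusted p = 0.00225). The rise of RRP12 was lost without UM-UC3 DMSO, 1 mM or 4 mM, and its fall without 5637 4 mM (limma adjusted p = 0.0691).

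UTP20, a large scaffold of pre-rRNA processing, had 8.52, 8.34, 8.67 and 6.75 FPKM in UM-UC3 cells and 13.4, 11.3, 6.94 and 2.72 FPKM in 5637 cells. UTP4, of the subcomplex that links pre-rRNA transcription to processing, had 54.5, 43.7, 50.4 and 35.5 FPKM in UM-UC3 cells and 52.4, 46.3, 33.9 and 19.3 FPKM in 5637 cells. Both were lowest at 4 mM in each line, and in 5637 cells they fell, with trends of -2.03 ± 0.46 and -1.45 ± 0.44 (limma adjusted p = 0.000116 and 0.000472). The fall of UTP20 kept its call without any one library, and that of UTP4 was lost without 5637 4 mM (limma adjusted p = 0.109). UTP4 overlaps CHTF8 on the opposite strand, whose level went the other way in 5637 cells (52.6, 44.8, 75.8 and 84.4 FPKM). In UM-UC3 cells CHTF8 was lower at each higher dose (41.3, 38.7, 26.2 and 18.5 FPKM), and UTP4 too was lowest at 4 mM. DERPC, also opposite to UTP4, had 16.7, 19.1, 12.2 and 5.33 FPKM in 5637 cells and 2.80, 1.07, 0.66 and 0.55 FPKM in UM-UC3 cells. The part of these overlaps in the values of UTP4 was not tested. UTP15, of the same subcomplex, rose in UM-UC3 by 1.27 ± 0.54 and fell by 0.82 ± 0.54 in 5637 (limma adjusted p = 0.00480 and 0.0211), the rise being lost without UM-UC3 4 mM and the fall without 5637 DMSO, 1 mM or 4 mM (limma adjusted p = 0.143, 0.0510 and 0.106). It overlaps ANKRA2 on the opposite strand, which was higher at each higher dose in both lines, 6.94 to 11.1 FPKM in UM-UC3 and 3.95 to 8.66 FPKM in 5637. In all, 12 members overlap another gene of at least 1 FPKM on average, 10 of them a protein-coding one: POLR1C, NHP2, UTP4, UTP15, NOP16, WDR12, NIP7, PPAN, NOC2L and GNL3. The library kit was a directional one, which keeps the strand of each fragment, but the methods do not say whether the counting used it. Strand would not separate PPAN from P2RY11 and PPAN-P2RY11, or UTP4 from SNTB2, which lie on the same strand.

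Of the 15 large subunit factors, 14 fell in 5637 cells (20.4% of all tested genes) and 2 rose in UM-UC3 cells (12.5%). The lines differed for 12, with the trend higher in UM-UC3 (10.4%). NOP2, a methyltransferase of large subunit rRNA, had 28.7, 26.7, 33.6 and 45.1 FPKM in UM-UC3 cells and 25.4, 19.1, 12.9 and 10.4 FPKM in 5637 cells. GNL3, the GTP-binding protein nucleostemin, had 63.5, 64.7, 77.3 and 112 FPKM in UM-UC3 cells and 62.9, 47.3, 40.5 and 38.9 FPKM in 5637 cells. The lines were close in DMSO and moved apart at each dose: UM-UC3 rose by 0.71 ± 0.47 for NOP2 and 0.85 ± 0.46 for GNL3 (limma adjusted p = 0.0314 and 0.0132), and 5637 fell, with trends of -1.21 ± 0.47 and -0.63 ± 0.46 (limma adjusted p = 0.00158 and 0.0306). The rise of NOP2 was lost when any 1 of 4 libraries was left out and that of GNL3 without UM-UC3 4 mM. The fall of GNL3 in 5637 cells was lost without 5637 DMSO, where the trend was -0.33, or without 5637 4 mM (limma adjusted p = 0.345 and 0.0764).

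BOP1, which with PES1 and WDR12 forms a complex of large subunit rRNA processing, had 56.5, 47.1, 47.1 and 39.4 FPKM in UM-UC3 cells and 51.1, 32.3, 24.2 and 20.4 FPKM in 5637 cells. NLE1, an assembly factor, had 10.7, 9.28, 9.33 and 8.19 FPKM in UM-UC3 cells and 10.0, 6.68, 5.08 and 2.99 FPKM in 5637 cells. RRS1, another assembly factor, had 24.6, 25.5, 23.3 and 22.6 FPKM in UM-UC3 cells and 42.3, 29.4, 18.4 and 10.5 FPKM in 5637 cells. All 3 were lowest at 4 mM in both lines, RRS1 by little in UM-UC3. In 5637 cells they fell, with trends of -1.21 ± 0.51, -1.43 ± 0.43 and -1.93 ± 0.39 (limma adjusted p = 0.00214, 0.000424 and 7.25e-05), calls kept without any one library. The trends differed by 1.11 ± 0.61 for NLE1 and 1.78 ± 0.56 for RRS1 (limma adjusted p = 0.0162 and 0.00189), and by 0.75 ± 0.71 for BOP1, which missed the threshold (limma adjusted p = 0.108).

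Averaged over doses, the level was higher in UM-UC3 than in 5637 cells for 20 members and lower for 2, against 30.0% and 36.7% of tested genes. The falls in 5637 cells under melatonin enter this average, and the level in DMSO alone was not tested. GNL3, GAR1 and POLR1B, called higher in UM-UC3, had 63.5, 32.7 and 10.7 FPKM in UM-UC3 DMSO. In 5637 DMSO they had 62.9, 33.8 and 11.6 FPKM. UTP14A was apart in DMSO already, with 40.1 FPKM in UM-UC3 and 14.3 FPKM in 5637. The median difference was 0.40 beside -0.10 over all tested genes, and 18 of the 22 calls were kept without any one library. UTP14A, a small subunit factor, had the largest, 1.88 ± 0.37 (limma adjusted p = 1.08e-05), with 38.0 to 51.2 FPKM in UM-UC3 cells and 8.56 to 14.3 FPKM in 5637 cells. MYC was 1.48 ± 0.72 higher in UM-UC3 cells (limma adjusted p = 0.00261). The 2 lower genes were NCL, at -0.61 ± 0.36, and NOP56, at -0.92 ± 0.38 (limma adjusted p = 0.00804 and 0.00101). For 14 members all 4 UM-UC3 libraries lay above all 4 of 5637 (22.7% of tested genes), and for NOP56 alone they lay below (28.4%).

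In other ribosome biogenesis genes the counts leaned the same way, to a varying extent. These lists, and those of MYC targets and partners below, were chosen with earlier results of these data known, so they give no independent support. For comparison, 16.7% of all tested genes fell and 12.5% rose in UM-UC3 cells, and 20.4% fell and 23.0% rose in 5637 cells. A trend higher in UM-UC3 was found for 10.4% of them. Of 37 further small subunit genes, 1 fell and 12 rose in UM-UC3 cells, while 19 fell and 1 rose in 5637 cells, with 21 trends higher in UM-UC3. Of 37 further large subunit genes, 1 fell and 8 rose in UM-UC3, while 21 fell and 1 rose in 5637, with 22 higher in UM-UC3. Of 11 other polymerase I genes, 5 rose in UM-UC3, while 5 fell and 1 rose in 5637, with 6 higher in UM-UC3. Of 12 other small nucleolar ribonucleoprotein genes, 3 rose in UM-UC3, while 5 fell and 1 rose in 5637, with 4 higher in UM-UC3. Of 16 genes of the RNA exosome and its partners, which trim rRNA precursors, 1 fell and 3 rose in UM-UC3, while 9 fell and 1 rose in 5637, with 5 higher in UM-UC3.

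Some genes of these lists moved in 1 direction in both lines. Those given here were named for the smallest p over both lines, a choice that favours genes moving alike in both. DDX54, a helicase of the large subunit list, had 27.2, 27.4, 21.6 and 15.4 FPKM in UM-UC3 cells and 19.9, 15.1, 11.5 and 4.57 FPKM in 5637 cells. EXOSC5, an exosome subunit, had 17.2, 13.4, 9.95 and 6.69 FPKM in UM-UC3 cells and 12.0, 7.73, 7.03 and 2.38 FPKM in 5637 cells. Over both lines they fell, with trends of -1.38 and -1.56 (limma adjusted p = 0.00475 and 0.00202). DDX54 fell more in 5637 (-1.92) than in UM-UC3 cells (-0.85), a difference of 1.07 (limma adjusted p = 0.0193). That call was lost when any 1 of 3 libraries was left out. RIOK2, a kinase of late small subunit maturation, went up, with 14.2, 18.2, 18.7 and 28.5 FPKM in UM-UC3 cells and 4.37, 4.51, 5.91 and 10.7 FPKM in 5637 cells (1.05, limma adjusted p = 0.00385). ZNHIT3, an assembly factor of box C/D particles, had 15.8, 20, 17.3 and 29.5 FPKM in UM-UC3 cells and 18.6, 24.1, 25.9 and 33.1 FPKM in 5637 cells. RRN3, which brings polymerase I to its promoter, had 10.5, 13.2, 15.7 and 17.4 FPKM in UM-UC3 cells and 14.4, 14.7, 14.4 and 21.9 FPKM in 5637 cells. Over both lines they rose by 0.77 and 0.62 (limma adjusted p = 0.0111 and 0.0231), RRN3 losing its call without 5637 1 mM, 5637 4 mM or UM-UC3 DMSO. The calls of DDX54, EXOSC5, RIOK2 and ZNHIT3 were kept without any one library. The next genes of these lists by p over both lines had trends of -0.73 (BMS1), -0.74 (RUVBL1), -0.65 (RUVBL2), -0.86 (MDN1), 0.64 (RSL24D1), -0.63 (MTREX) and -0.95 (EXOSC10), which passed the threshold, of which BMS1 alone kept its call without any one library, and of 0.37 (TAF1A), -0.34 (TAF1B) and -0.89 (WDR46), which missed it.

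**Figure D4:**
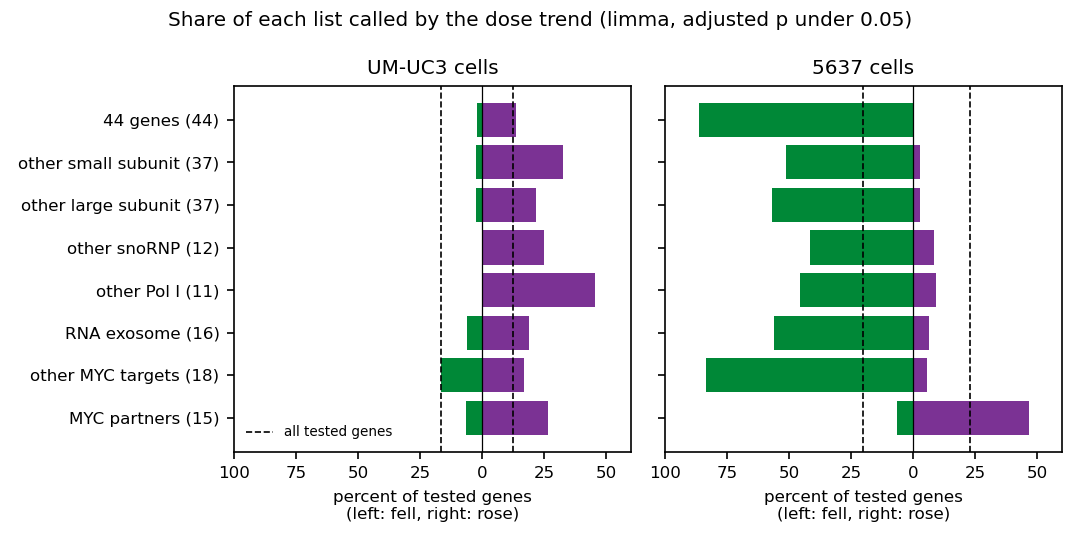
Percent of each gene list that fell (green, left of 0) or rose (purple, right of 0) with dose at a limma adjusted p under 0.05, with UM-UC3 left and 5637 right, the number of tested genes in parentheses and dashed lines for all tested genes. In 5637 cells 38 of the 44 genes and 15 of 18 other MYC targets fell.

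Of 18 other known MYC targets, 3 fell and 3 rose in UM-UC3 cells (16.7% and 12.5% of tested genes). In 5637 cells 15 fell and 1 rose (20.4% and 23.0%). The trends of the lines differed for 10 of the 18, all higher in UM-UC3 (10.4% of tested genes). Differences ranged from -0.31 to 3.20, with a median of 0.99 beside -0.11 over all tested genes. CDK4, a cell-cycle kinase, had 117, 110.0, 65.4 and 43.6 FPKM in UM-UC3 cells and 66.0, 56.0, 47.4 and 28.4 FPKM in 5637 cells. IPO4, a nuclear import receptor, had 42.0, 31.9, 33.8 and 17.8 FPKM in UM-UC3 cells and 34.4, 27.3, 17.9 and 10.7 FPKM in 5637 cells. ODC1, the rate-limiting enzyme of polyamine synthesis, had 83.2, 88.8, 121 and 178 FPKM in UM-UC3 cells and 75.4, 106, 143 and 171 FPKM in 5637 cells. CDK4, IPO4 and ODC1 were named for the smallest p over both lines, a choice that favours genes moving alike in both. Each of these genes moved in the same direction in both lines. Trends over both were -1.35 for CDK4, -1.38 for IPO4 and 1.14 for ODC1 (limma adjusted p = 0.00197, 0.00215 and 0.00294). Each call was kept without any one library.

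Of 15 partners and regulators of MYC, 1 fell and 4 rose in UM-UC3 cells (16.7% and 12.5% of tested genes). In 5637 cells 1 fell and 7 rose (20.4% and 23.0%). Over both lines 4 rose, 11 were not called and none fell, where 12.1% of tested genes rose and 12.8% fell. Other MAX partners that repress did not pass over both lines, MNT with a trend of -0.24, MXI1 with 0.18 and MXD3 with -0.08. MXD1, which competes with MYC for MAX and represses, had 5.67, 6.33, 11.8 and 15.4 FPKM in UM-UC3 cells and 1.19, 1.77, 2.97 and 11.8 FPKM in 5637 cells. MYCL, a paralogue of MYC, had 4.27, 7.16, 9.12 and 17.5 FPKM in UM-UC3 cells and 1.42, 1.41, 2.19 and 4.50 FPKM in 5637 cells. FBXW7, the ubiquitin ligase subunit that marks MYC for degradation, had 4.17, 5.38, 6.81 and 14.4 FPKM in UM-UC3 cells and 5.10, 6.01, 5.84 and 10.5 FPKM in 5637 cells. MXD1, MYCL and FBXW7 were also named for the smallest p over both lines. All 3 were highest at 4 mM in both lines. Over both lines they rose by 1.99, 1.51 and 1.24 (limma adjusted p = 0.00300, 0.00215 and 0.00454), calls kept without any one library. MXD4, a MAX partner like MXD1 and singled out after its values were seen, had 11.9, 12.8, 5.51 and 3.96 FPKM in UM-UC3 cells and 1.53, 1.52, 3.96 and 10.3 FPKM in 5637 cells. It fell in UM-UC3 (-1.57) and rose in 5637 (2.33), with a difference of -3.90 (limma adjusted p = 0.00133) that was lost without UM-UC3 4 mM. The fall and the rise each lost their call without the 4 mM library of their line (limma adjusted p = 0.243 and 0.142).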

How the data were processed

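The authors aligned trimmed 150-base paired-end reads with HISAT2 to GRCh38 and estimated gene expression with StringTie, per the labels and methods; the values deposited, taken to be FPKM because the table names no unit, were used as they stood for the 8 libraries of 60612 genes. The depth of the libraries is unknown. Another deposited sheet repeats these columns for fewer genes and one more holds the authors' correlations between samples; neither was used. Groups came from the sample labels. Genes averaging under 1 FPKM were left out, and log2(FPKM + 1) of the remaining 12649 was fitted in limma 3.58.1 (R 4.3.3, eBayes with trend and robust) on dose, with a term for the line (5 residual degrees of freedom) or a slope per line (4), and p-values were adjusted by Benjamini-Hochberg over all tested genes with a threshold of 0.05. The fit was tested on simulated data. Alternatives were rescaling by TMM factors, other filters, a smaller pseudocount, other dose codings, plain eBayes and leaving out libraries. The members and lists were chosen with earlier results of these data known. Values in every library were given for MYC and, in each role class, for the genes with the smallest p over both lines and of the difference and the highest mean FPKM, plus, of each further list, the 1 to 3 genes with the smallest p over both lines, the remainder of the first 3 being given by their trend. Figures were drawn with matplotlib 3.10.9.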

Additional observations from a re-analysis of the deposited data

Results flagged for a closer look

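The dose trends of UM-UC3 and 5637 cells differed for 30 of the 44 genes by a test of the difference itself (limma, adjusted p under 0.05), and each difference, UM-UC3 minus 5637 in log2(FPKM + 1) over 0 to 4 mM, is given here by role. For MYC it was 2.13. In polymerase I transcription it was 1.08 for POLR1B, 1.21 for POLR1C and 1.74 for TCOF1. Among the multifunctional proteins it was 0.99 for NPM1, 2.24 for MYBBP1A, 1.44 for DDX21 and 1.91 for LYAR. It was 1.29 for FBL of the box C/D particle and 1.40 for GAR1 of the box H/ACA particle. Among small subunit genes it was 0.92 for UTP4, 2.08 for UTP15, 1.73 for UTP20, 1.80 for WDR43, 1.08 for NOP14, 1.80 for RRP12, 1.74 for BYSL and 1.5 for DDX10. Among large subunit genes it was 1.92 for NOP2, 2.14 for NOP16, 1.14 for PES1, 1.00 for WDR12, 1.88 for WDR74, 1.14 for NIP7, 1.75 for PPAN, 1.10 for NOC2L, 1.48 for GNL3, 0.83 for LAS1L, 1.11 for NLE1 and 1.78 for RRS1. None of these calls was kept without the UM-UC3 4 mM library. With 1 library per line and dose, no library could be compared with others of its own group.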

How the results depend on the processing

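The level difference between lines was called for 18 to 26 members under every alternative run, against 22. Other counts moved, and the cause was not tested. The 14 calls over both lines became 9 with TMM factors and 1 with no filter. They became 0 with any melatonin dose set against DMSO, without both 4 mM libraries or with no term for the line (no replicate block), where limma gave 7, 19 and 8 members an unadjusted p under 0.05. The 38 calls in 5637 became 0 with any dose against DMSO (16 unadjusted) and 23 without both 4 mM libraries. The 7 calls in UM-UC3 became 1 with no filter or with log2 of dose + 1, and 0 with any dose against DMSO or without both 4 mM libraries (0 and 3 unadjusted). The 30 differences became 4 with no filter, 14 with log2 of dose + 1, and 0 with any dose against DMSO or without both 4 mM libraries (1 and 25 unadjusted). Leaving out 1 library at a time gave 3 to 31 calls over both lines, 15 to 40 in 5637, 0 to 12 in UM-UC3, 0 to 30 differences and 18 to 26 levels. The trend of MYC over both lines, 0.20, turned to -0.26 with any dose against DMSO, -0.84 without both 4 mM libraries and -0.67 without UM-UC3 4 mM; leaving out 1 library at a time gave -0.67 to 0.73. With TMM factors the median difference of all genes was -0.01, against -0.11 without, and 30 members differed. No paired analysis was possible because each line and dose had 1 library and the replicate number pairs nothing. Depth is unknown, so counting error could not be separated from other scatter.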

Other observations

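Ribosome biogenesis genes can carry small nucleolar RNA genes, and 3 of these overlap GNL3 on its own strand. SNORD19C had 3.25, 2.08, 7.16 and 19.9 FPKM in UM-UC3 cells at 0, 1, 2 and 4 mM, and 2.38, 3.0, 2.07 and 1.26 FPKM in 5637 cells. SNORD69 had 2.06, 3.93, 4.51 and 18.0 FPKM in UM-UC3 cells and 2.35, 4.01, 1.28 and 1.22 FPKM in 5637 cells. Both were highest at 4 mM in UM-UC3 and lowest at 4 mM in 5637, as GNL3 was. SNORA51, which overlaps NOP56 on its own strand, had 0.38, 0.39, 0.26 and 2.08 FPKM in UM-UC3 cells and 2.66, 1.04, 0.70 and 0.81 FPKM in 5637 cells. Fragments of a host transcript and of such an RNA cannot be told apart in these values.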
